A study of Litchi chinensis with 30 samples.

Results

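Half-bloom male flowers of litchi (M4, 3 libraries) were compared with male flower buds of the largest size class (M3, 3 libraries). These 6 of the 30 libraries of the series were chosen by their labels, and all 37234 genes of the deposited table were considered. RNA was sequenced from whole flowers of the cultivar Feizixiao, functionally male and functionally female, at 5 stages with 3 replicates each. Stages 1 to 3 were bud size classes, stage 4 was half-bloom and stage 5 was full bloom. M4 and M3 differed in stage and had the same sex and cultivar. Litchi bears male flowers of 2 kinds, and the labels do not say which was taken. The study's methods describe triplicate sampling from differently facing parts of the tree. The labels do not say that replicates came from separate trees, so p-values measure only the spread between these samples. Functionally female flowers of the same stages (F4 and F3) served to show where the male step differed.

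When a male flower opens, the anthers hold finished pollen, the nutritive layer around the pollen (the tapetum) has been broken down, and the nectary begins to secrete. Pollen stores transcripts for the growth of its tube, among them enzymes that loosen pectin, proton pumps and cell surface receptors. Litchi flowers have sepals but no petals.

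The 6 libraries held 30370796 to 38075360 counts each. Log2 CPM (counts scaled to library size) correlated across genes at 0.947 to 0.953 among M4 libraries and 0.954 to 0.959 among M3 libraries, against 0.861 to 0.886 between the groups. Genes are not independent replicates, and these values are descriptions. Replicates of a group differed by 6.51 to 15.9 times the sampling noise, so no pair was counted as 1 library deposited again, which does not show that they came from separate plants. Levels are given as FPKM, fragments scaled by transcript length and library depth, and fold changes as log2 of M4 over M3 with an approximate standard error (SE). LcActin (LITCHI007623) averaged 350 FPKM in M4 and 245 FPKM in M3 and was not called.

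Of 27854 tested genes, 5672 were called, or 20.4%, in edgeR's quasi-likelihood test with a 2-fold minimum change and an adjusted p (false discovery rate, FDR) below 0.01. There were 2154 genes higher in M4 (7.73%) and 3518 lower (12.6%). The CPM of the 3 M4 and the 3 M3 libraries did not overlap in 58.6% of tested genes. The median log2 fold change of all tested genes was -0.06, and -0.17 when libraries were scaled by their totals alone. Calls with large changes ran the other way, with 715 genes at a log2 fold change of 3 or more and 615 at -3 or less. Among the called genes, 126 had no count in any M3 library and 109 had none in any M4 library. In whole flowers, fewer cells of a type and less RNA per cell cannot be told apart.

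Genes were sorted into 45 lists by their predicted names. The lists with the largest share of members called higher were polygalacturonases and pectate lyases, pollen and anther proteins, late embryogenesis abundant proteins, and pectinesterases with their inhibitors. Photosynthesis, cell division, histones and tapetum had the largest share called lower. The plot of list shares shows these against the share over all tested genes. Counts of list members below are to be read against those shares, 7.73% higher and 12.6% lower.

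**Figure D1:**
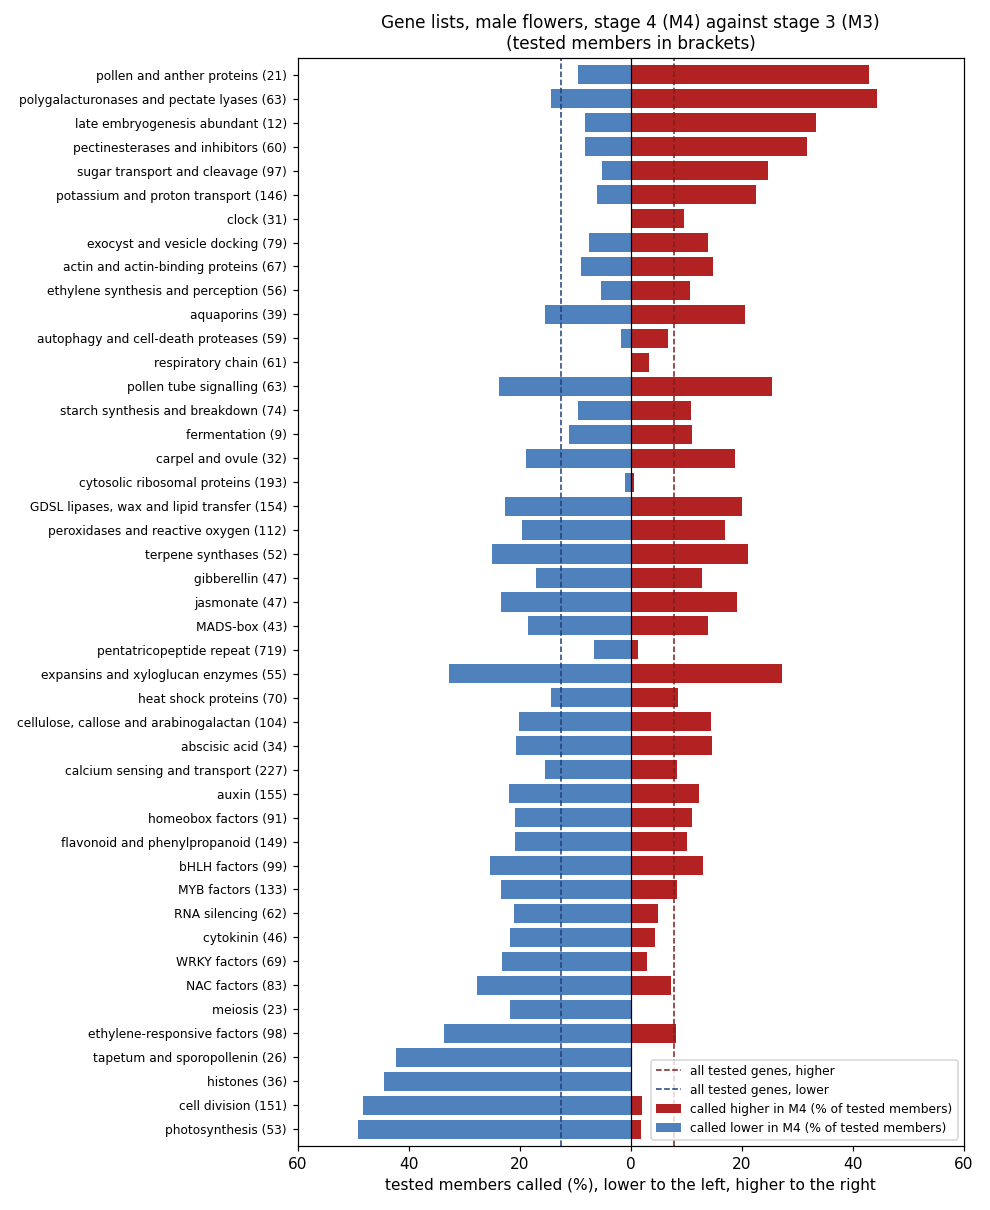
Share of the tested members of each of 45 gene lists called higher (right) or lower (left) in M4 against M3, in percent, with tested members in brackets and dashed lines at the shares over all tested genes. Those lines stand at 7.73% and 12.6%, and polygalacturonases and pectate lyases reach 44.4% higher, while photosynthesis reaches 49.1% lower.

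The tissues were checked first with markers of 7 cell types or tissues. Markers of the pollen vegetative cell and tube summed to 457, 576 and 587 FPKM in M4, against 39.4, 32.1 and 27.7 FPKM in M3, with 17 of 23 tested markers called higher and 1 called lower. Tapetum markers summed to 163, 114 and 81.9 FPKM in M4, against 313, 422 and 400 FPKM in M3, with 7 of 22 called lower. For both classes the M4 and M3 libraries did not overlap. Members of both classes, such as LAT52 and CYP703A2, are also described singly below, so the sums and those values are not separate observations.

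Nectary markers summed to 600, 1160 and 2030 FPKM in M4, against 33.3, 29.4 and 27.9 FPKM in M3. Of 9 tested 4 were called higher, and 6 further members had no count in either group. The sum also rose in female flowers, from a mean of 35.5 FPKM in F3 to 626 FPKM in F4. Most of the M4 sum came from CWINV1 and NEC1, so the sum and the values of those genes below are not separate observations. The M4 libraries therefore differed among themselves, with replicate 1 lowest in nectary and pollen tube markers and highest in tapetum markers, and replicate 3 at the other end. The part of this spread in the results was not tested. The sums for photosynthetic tissue were 773, 708 and 675 FPKM in M4, against 1130, 1160 and 1200 FPKM in M3 (11 of 17 called lower).

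Markers of sperm and generative cells summed to 64.4, 65.5 and 62.0 FPKM in M4, against 59.5, 58.6 and 61.3 FPKM in M3. The sums were close to each other, but 2 of 8 tested markers were called higher and none lower (median log2 fold change 0.62). Carpel and ovule markers summed to 788, 735 and 684 FPKM in M4 and 427, 389 and 394 FPKM in M3. Of 11 tested, 3 were called higher and 2 lower. Most of the sum came from CRABS CLAW, which in Arabidopsis is active in both carpels and nectaries. At stage 3 these markers are no check of the sex on the label, since F3 flowers averaged 822 FPKM for the tapetum sum, 26.5 FPKM for the pollen tube sum and 360 FPKM for the carpel sum. At stage 4 the F4 means were 99.6, 123 and 443 FPKM, and every M4 library lay above the F4 mean for the pollen tube and carpel sums but not for the tapetum. Meiocyte markers were low, at 16.7, 14.7 and 14.2 FPKM in M4 and 23.6, 20.7 and 19.8 FPKM in M3. Of 11 tested, 2 were called lower and none higher.

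**Figure D2:**
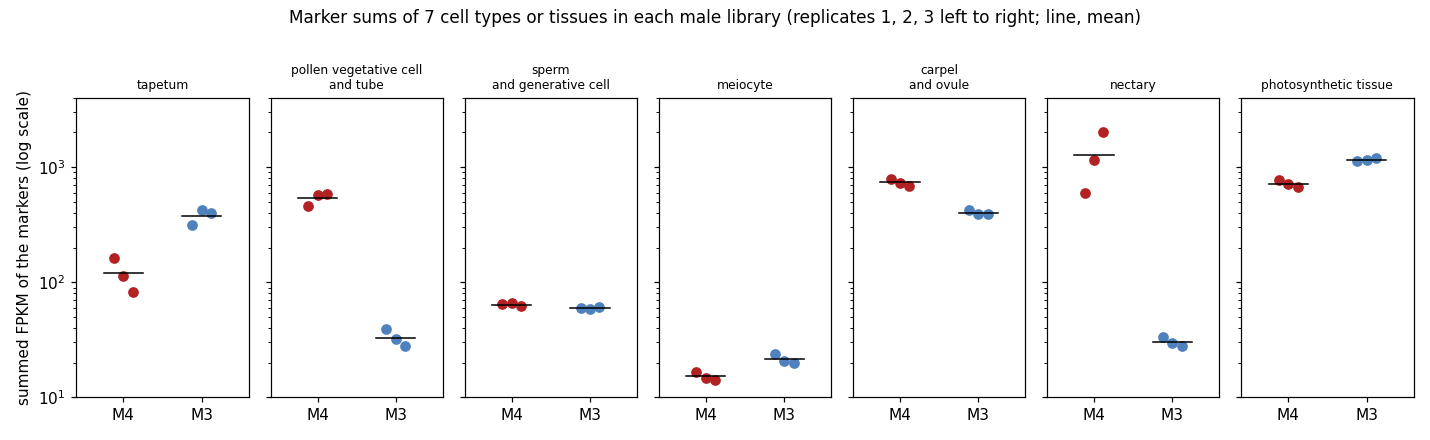
Summed FPKM of marker genes (log axis) for 7 cell types or tissues in each M4 library (left in each panel) and each M3 library (right), replicates 1 to 3 from left to right, with a line at the mean. Pollen tube markers lie at 457 to 587 FPKM in M4 and at 27.7 to 39.4 FPKM in M3, and nectary markers spread from 600 to 2030 FPKM within M4.

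Several pollen transcripts rose by large factors. LAT52 (LITCHI013059), a protein needed for pollen hydration and tube growth in tomato, stood at 187, 216 and 197 FPKM in M4, against 10.5, 6.59 and 6.2 FPKM in M3 (log2 fold change 4.80 ± 0.47 SE, FDR = 1.49e-08). An L-ascorbate oxidase homolog (LITCHI029916), homologs of which are pollen proteins in tobacco, stood at 210, 282 and 286 FPKM in M4, against 10.3, 8.68 and 6.65 FPKM in M3 (5.04 ± 0.51, FDR = 2.5e-08). Every M4 library exceeded every M3 library for both genes by more than 10 times. Of the 27 pollen and anther proteins 21 were tested, of which 9 rose and 2 fell, with a median log2 fold change of 2.12 against -0.06 over all tested genes. A relative of the second gene (LITCHI006774) was among those that fell, at 9.98, 8.9 and 6.32 FPKM in M4, against 39.6, 39.8 and 35.9 FPKM in M3. The pollen allergen Ole e 6 (LITCHI014844) averaged 148 ± 21.0 FPKM in M4 and 6.87 ± 2.17 FPKM in M3 (SD, n = 3 each).

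More genes for pectin-cutting enzymes rose than fell. Polygalacturonases and pectate lyases cut pectin, the gel of young cell walls and of the growing pollen tube. Of 87 genes with such names 63 were tested, of which 28 rose and 9 fell (median 0.89), and 5 fell without M4 replicate 3. The 63 hold 6 genes named as an inhibitor, a non-catalytic subunit or a beta-like protein, of which 1 rose and 1 fell. Of the other 57, a split made after the values were seen, 27 rose and 8 fell (median 1.14), with 4 lower without M4 replicate 3 and 5 without M4 replicate 2 or M3 replicate 1. A polygalacturonase (newGene_6124) had the largest difference in mean FPKM among the members that rose, reached 10 CPM and did not overlap, at 325, 330 and 483 FPKM in M4, against 10, 10.3 and 8.5 FPKM in M3 (5.38 ± 0.59, FDR = 9.17e-08). Pectate lyase P59 (LITCHI005121) stood at 97.3, 127 and 137 FPKM in M4, against 5.5, 3.77 and 3.08 FPKM in M3. Pectate lyase 19 (LITCHI017891) had the largest fold among those same members, with 23.4, 45.3 and 57.5 FPKM in M4 and under 0.3 FPKM in each M3 library (7.66 ± 0.78, FDR = 7.04e-08).

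Pectinesterases remove methyl groups from pectin and so set its stiffness, and their inhibitors act against them. Of 60 tested genes for both, 19 were higher and 5 lower (median 0.71). Split by name after the values were seen, 42 pectinesterases had 12 higher and 4 lower (median 0.67), and 18 inhibitors had 7 higher and 1 lower (median 1.45). Pectinesterase 50 (LITCHI020207) stood at 128, 206 and 235 FPKM in M4, against 2.51, 2.53 and 2.1 FPKM in M3 (6.42 ± 0.68, FDR = 1.16e-07). PPME1 (LITCHI031365), which shapes pollen tubes in Arabidopsis, reached 14.5, 23.9 and 26.9 FPKM in M4, against 0.0497, 0.316 and 0 FPKM in M3. In both genes M4 replicate 1 was the lowest of its group and still far above M3. Pectinesterase 68 (LITCHI022790) went the other way, at 1.69, 1.34 and 0.952 FPKM in M4 and 22, 20.1 and 20.5 FPKM in M3 (-3.87 ± 0.27, FDR = 1.12e-10).

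Among genes for pollen tube signalling, 16 of 63 tested members rose (25.4%, against 7.73% of all tested genes) and 15 fell (23.8%, against 12.6%). Calls in both directions lay above those shares, so the median does not mean that few members changed. It was -0.03, or -0.03 to 0.08 without 1 library. Those that rose included the secreted peptide RALF-like 4 (LITCHI029181), a pollen tube integrity signal in Arabidopsis, at 34.5, 45.5 and 49 FPKM in M4, against 1.82, 1.32 and 2.06 FPKM in M3. ANXUR1 (LITCHI003619), a receptor kinase that keeps Arabidopsis pollen tubes from bursting, averaged 6.02 ± 1.83 FPKM in M4 and 0.073 ± 0.0321 FPKM in M3 (SD, n = 3 each; 6.38 ± 0.62 on the log2 scale). COBRA-like protein 10 (LITCHI013405), needed for tube guidance in Arabidopsis, had a log2 fold change of 4.77 ± 0.43. RALF-like 34 (LITCHI006893) fell, with 9.46, 7.83 and 9.12 FPKM in M4 and 40.4, 42.9 and 38.8 FPKM in M3. The 2 groups of libraries did not overlap for any of these genes.

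The cytoskeleton and the secretory pathway moved less. Of 67 tested actin and actin-binding genes 10 rose (14.9%, against 7.73% of all tested genes) and 6 fell (8.96%, against 12.6%). The number lower was 2 without M4 replicate 3 and 3 without M3 replicate 2. The median was 0.06, and 0.12 or 0.11 without the same libraries. Of 79 genes for the exocyst and vesicle docking 11 rose (13.9%) and 6 fell (7.59%), with a median of 0.15, and 0.25 without M4 replicate 2. Profilin-3 (LITCHI017710), an actin monomer binding protein, stood at 45.4, 49.7 and 44.2 FPKM in M4, against 8.24, 5.82 and 5.34 FPKM in M3 (2.95 ± 0.29, FDR = 1.37e-08). An actin-depolymerizing factor (LITCHI022130) had a log2 fold change of 5.42 ± 0.55. Phosphatidylinositol 4-phosphate 5-kinase 4 (LITCHI008646), a lipid kinase of pollen tubes in Arabidopsis, had one of 6.68 ± 1.02 at a level of 4.78 ± 1.53 FPKM in M4 (SD, n = 3).

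More ion transporters rose than fell. Of 146 tested genes for potassium and proton transport 33 rose and 9 fell (median 0.47). The proton pump ATPase 8 (LITCHI016279), a pollen form in Arabidopsis, stood at 78.4, 118 and 128 FPKM in M4, against 2.29, 2.42 and 1.59 FPKM in M3 (5.80 ± 0.57, FDR = 1.83e-08). Potassium transporter 13 (LITCHI009724) stood at 62.7, 68.9 and 78.6 FPKM in M4, against 1.03, 0.91 and 0.927 FPKM in M3 (6.30 ± 0.44, FDR = 8.64e-11). It was low in female flowers, with 0.937 FPKM in F4 and 0.361 FPKM in F3, and the male step exceeded the female step by 4.98 ± 0.55 on the log2 scale (interaction FDR = 1.09e-06). Potassium transporter 2 (LITCHI027472) averaged 202 ± 40.9 FPKM in M4 and 34.5 ± 1.15 FPKM in M3 (SD, n = 3 each). Potassium transporter 5 (LITCHI021696) fell, at 29, 27.2 and 24.4 FPKM in M4 and 79, 89.5 and 98.3 FPKM in M3 (-1.62 ± 0.41, FDR = 0.00198), with an FDR of 0.0102 without M4 replicate 2 and of 0.0134 without M4 replicate 3. Calcium sensing and transport genes were near the shares of all genes, with 19 higher (8.37%) and 35 lower (15.4%) of 227 tested.

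Several genes of nectar and sugar secretion rose by large factors. The cell wall invertase CWINV1 (LITCHI030803), which splits sucrose outside cells, stood at 236, 504 and 927 FPKM in M4, against 0.221, 0.145 and 0.0812 FPKM in M3 (11.97 ± 1.37, FDR = 1.71e-07). NEC1 (LITCHI003451), a sugar transporter of petunia nectaries, stood at 320, 602 and 1040 FPKM in M4, against 7.17, 3.81 and 4.07 FPKM in M3 (7.14 ± 0.68, FDR = 2.54e-08). The adjacent entry for NEC1 (LITCHI003452) was at 3.92, 11.2 and 23.5 FPKM in M4 and had no count in M3, which makes it at least 629-fold higher against a floor of 3 counts over the group. For each of these the M4 libraries kept the same order, replicate 1 lowest and replicate 3 highest, and no M3 library overlapped with them. MYB305 (LITCHI020546), a regulator of nectaries in tobacco, stood at 423, 491 and 633 FPKM in M4, against 0.721, 1.75 and 2.89 FPKM in M3 (8.27 ± 0.82, FDR = 2.01e-08). CRABS CLAW (LITCHI005346) was high in both groups, at 732, 678 and 627 FPKM in M4, against 366, 325 and 334 FPKM in M3 (1.10 ± 0.15), and its log2 fold change was 0.99, under the threshold, with scaling by library totals.

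Sugar transport and cleavage as a list held 24 called higher and 5 called lower of 97 tested (median 0.48), and 15 called higher by limma-trend on log2(FPKM + 1). Sugar transport protein 14 (LITCHI017764) was among the few that fell, at 22.1, 21 and 21.5 FPKM in M4 and 63.8, 83.6 and 82 FPKM in M3. Starch genes were near the share of all genes, with 8 higher and 7 lower of 74.

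Other genes with the largest fold changes shared the library order of the nectary genes. Beta-glucosidase 13 (LITCHI004342), a sugar-releasing hydrolase, stood at 267, 572 and 1090 FPKM in M4, against 1.06, 0.96 and 0.731 FPKM in M3. A 1-deoxy-D-xylulose-5-phosphate synthase (LITCHI006582), the entry step of plastid isoprenoid synthesis, stood at 171, 383 and 679 FPKM in M4, against 0.738, 0.566 and 0.938 FPKM in M3. Carotenoid cleavage dioxygenase 4 (LITCHI015831) stood at 50.3, 101 and 178 FPKM in M4 and under 0.14 FPKM in M3. In all 3 the M4 replicates differed by more than 3 times, while the lowest of them was far above the highest M3 value.

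Alpha carbonic anhydrase 7 (LITCHI018673), ABC transporter G family member 9 (LITCHI013206) and 2 berberine bridge enzyme-like 13 entries (LITCHI023029 and LITCHI023030), the last being flavin oxidoreductases, were chosen by the same rule of fold change, with log2 fold changes of 11.39, 12.28, 10.30 and 9.62. Fasciclin-like arabinogalactan protein 14 (LITCHI031698), a cell surface glycoprotein, was at 8.79, 14.4 and 15.1 FPKM in M4 with no count in M3, at least 514-fold higher. A GDSL esterase/lipase (LITCHI004797.m14) was at least 1160-fold higher, and with the entries of its locus summed its log2 fold change was 7.26. A rhamnosyltransferase (LITCHI007213.m2) passed the test (FDR = 0.00746), but its call was lost when the entries of its locus were summed (4.61, FDR = 0.0105), with DESeq2 (FDR = 0.0181) and without any 1 of the 6 libraries (FDR = 0.0112 to 0.0211).

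Late embryogenesis abundant proteins protect dry cells such as pollen and seeds. Of 12 tested 4 rose and 1 fell. The median was 1.69, but 0.24 without M4 replicate 1, 3.36 without M3 replicate 3 and 0.57 with no filter. Late embryogenesis abundant protein 1 (LITCHI015173) stood at 420, 504 and 523 FPKM in M4, against 47.1, 27.6 and 23.1 FPKM in M3 (4.00 ± 0.36, FDR = 5.76e-09), and the 18 kDa seed maturation protein (LITCHI019133) at 115, 133 and 127 FPKM in M4, against 8.59, 7.5 and 6.65 FPKM in M3. The groups of libraries did not overlap in either gene.

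Terpene synthases make floral scent and resin compounds. Of 52 tested 11 rose and 13 fell, with a median of -1.23. It came to -0.05 without M3 replicate 3, -0.34 without M3 replicate 2 and -0.58 without M3 replicate 1 or M4 replicate 3. Those fits were filtered anew, which changes the members tested. With no filter and all libraries the median was -0.19. Terpene synthase 9 (LITCHI021197.m2) stood at 305, 311 and 222 FPKM in M4, against 14.5, 16.1 and 16.8 FPKM in M3 (4.25 ± 0.30, FDR = 1.11e-10). A germacrene D synthase (newGene_1755) was lower, at 11.3, 12.6 and 17.8 FPKM in M4 and 44.5, 50 and 50.2 FPKM in M3. Of 149 phenylpropanoid and flavonoid genes 15 rose and 31 fell, and among those that rose was cinnamyl alcohol dehydrogenase 1 (LITCHI001532), at 233, 304 and 393 FPKM in M4, against 2.6, 4.28 and 4.37 FPKM in M3.

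**Figure D3:**
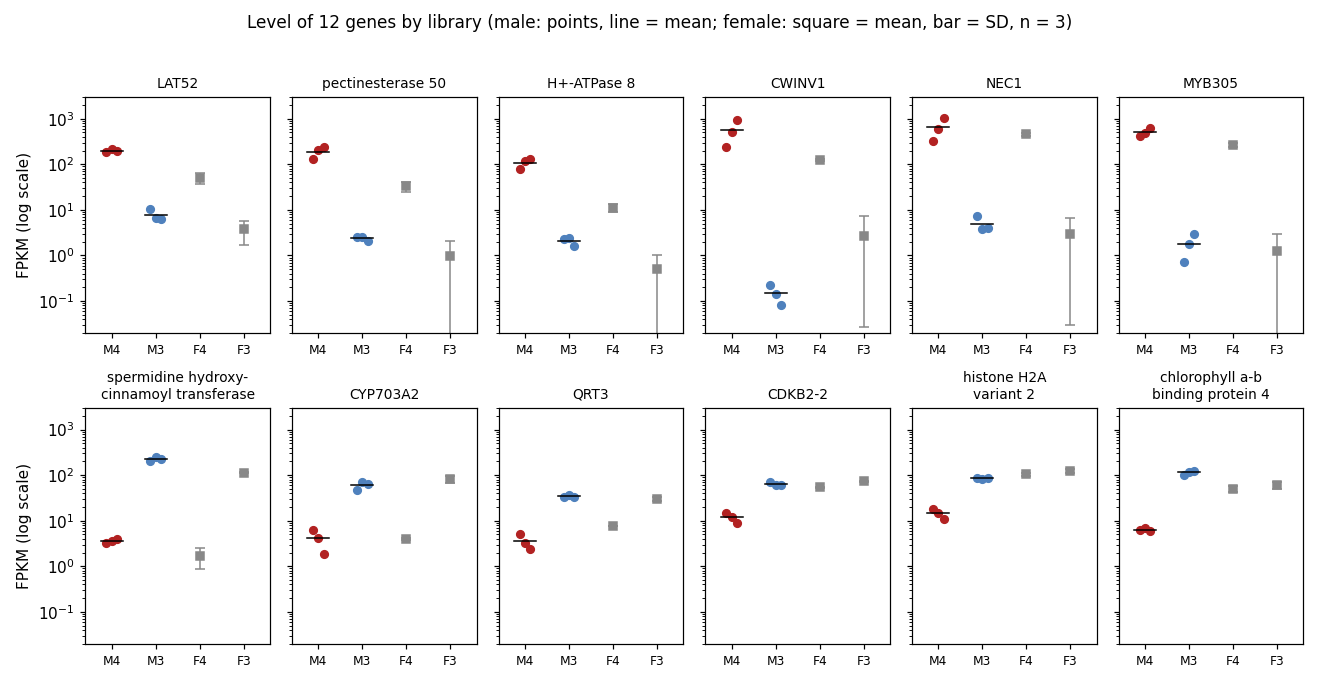
FPKM (log axis) of 12 genes, with M4 and M3 libraries as points and lines at the mean, and F4 and F3 as squares at the mean with bars of 1 SD (n = 3) that end at the foot of the axis where they would reach below it. The 6 genes of pollen and nectary in the upper row rise in M4, and the 6 genes of tapetum, cell division and chloroplast in the lower row fall, CDKB2-2 and histone H2A variant 2 keeping 54.4 and 104 FPKM in F4. QRT3 is the entry LITCHI028414, and another entry of that name was called higher in M4.

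Listed genes of the tapetum and the pollen wall fell where they were called. Of 28 such genes 26 were tested, of which none rose and 11 fell, with a median of -1.68, or -2.53 without M4 replicate 1. Spermidine hydroxycinnamoyl transferase (LITCHI016420), which is not in this list and makes phenolamides of the pollen coat in Arabidopsis, stood at 3.31, 3.59 and 3.94 FPKM in M4, against 204, 247 and 221 FPKM in M3 (-5.84 ± 0.88, FDR = 8.42e-06). CYP703A2 (LITCHI026872), an enzyme of sporopollenin, the polymer of the pollen wall, stood at 6.28, 4.13 and 1.91 FPKM in M4, against 48.3, 71.8 and 64.4 FPKM in M3 (-3.80 ± 0.50, FDR = 1.37e-06). ABORTED MICROSPORES (LITCHI002043), the master regulator of the tapetum in Arabidopsis, stood at 6.24, 4.6 and 1.14 FPKM in M4, against 41.3, 50.3 and 47.6 FPKM in M3 (-3.44 ± 0.41, FDR = 3.6e-07). All M4 libraries lay below all M3 libraries, with M4 replicate 3 lowest for both of the last genes.

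MALE STERILITY 1 (LITCHI005964), a late regulator of the tapetum in Arabidopsis, averaged 0.679 ± 0.519 FPKM in M4 and 5.98 ± 1.24 FPKM in M3 (SD, n = 3 each; FDR = 0.00221), and missed the threshold without M4 replicate 2 (FDR = 0.014) or without M4 replicate 3 (FDR = 0.0172). CYP704B1 (LITCHI005203), which acts beside CYP703A2, averaged 5.69 ± 4.24 FPKM in M4 and 53.3 ± 15.0 FPKM in M3. STRICTOSIDINE SYNTHASE-LIKE 13 (LITCHI015928), needed for the pollen wall in Arabidopsis, stood at 56.2, 42.2 and 20.9 FPKM in M4, against 267, 234 and 239 FPKM in M3. QRT3 (LITCHI028414), a polygalacturonase outside the tapetum list that frees Arabidopsis pollen from its tetrads, stood at 5.19, 3.24 and 2.45 FPKM in M4, against 33.8, 36.1 and 33.8 FPKM in M3. Another QRT3 entry (LITCHI025233) was called higher, with a log2 fold change of 2.38, and LITCHI028395 was not called at -0.97. The bHLH91 factor (LITCHI025266.m5), outside the tapetum list but active in the Arabidopsis tapetum, had a log2 fold change of -4.70, and -3.71 with the entries of its locus summed.

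Several of the deepest falls were in genes of fatty acid elongation and of copper proteins. The enzyme 3-ketoacyl-CoA synthase 7 (LITCHI004247), which elongates fatty acids, stood at 3.67, 3.47 and 4.23 FPKM in M4, against 129, 187 and 171 FPKM in M3 (-5.31 ± 0.88, FDR = 2.57e-05). ECERIFERUM 26-like (LITCHI017060), a partner of such enzymes in Arabidopsis, had 3.78, 2.95 and 2.18 FPKM in M4 and 125, 160 and 141 FPKM in M3. Neighbouring entries for mavicyanin, a small blue copper protein, fell together, the most abundant (LITCHI026234) with 13.6, 10.2 and 8.38 FPKM in M4 and 528, 510 and 529 FPKM in M3 (-5.50 ± 0.79, FDR = 4.02e-06). Copper transporter 4 (LITCHI018306) averaged 3.98 ± 0.553 FPKM in M4 and 171 ± 43.0 FPKM in M3 (SD, n = 3 each). Neighbouring entries of one name may share reads in the counting, so their separate values are uncertain.

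Further large falls were in 1-aminocyclopropane-1-carboxylate oxidase homolog 1 (LITCHI015352), a dioxygenase, at 6.22 ± 0.346 FPKM in M4 and 273 ± 14.4 FPKM in M3, and in flavonoid 3',5'-hydroxylase 1 (LITCHI023734), a pigment enzyme, at 0.572 ± 0.0706 FPKM in M4 and 24.5 ± 0.93 FPKM in M3 (SD, n = 3 each). Beta-galactosidase 3 (LITCHI001880.m1) had no count in M4 and was at least 665-fold lower, but with the entries of its locus summed its log2 fold change was -3.34. The glucan endo-1,3-beta-glucosidase 13 entry (LITCHI017711.m1) had no count in M4 either, yet its summed locus stood at 0.14 and was not called. Single entries of these 2 loci therefore do not stand for the gene.

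Genes of cell division were lower in nearly all cases where they were called. Of 171 genes named as cyclins, kinesins or division proteins 151 were tested, of which 73 fell and 3 rose, with a median of -1.38. CDKB2-2 (LITCHI009863), a kinase that drives entry into mitosis, stood at 14.5, 11.9 and 9 FPKM in M4, against 70.8, 59.6 and 60 FPKM in M3 (-2.32 ± 0.17, FDR = 1.58e-10). The kinesin KIN-10A (LITCHI015279), a motor of the dividing cell, had a log2 fold change of -3.17 ± 0.28. KIN-UC (LITCHI027817), a kinesin outside this pattern, rose to 40.5, 46.8 and 57.3 FPKM in M4, against 23.7, 21.8 and 19 FPKM in M3 (1.28 ± 0.12).

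Histones, whose synthesis follows DNA replication, had 16 of 36 tested genes called lower and none higher (median -0.73). Histone H2A variant 2 (LITCHI026149) stood at 18.5, 14.5 and 11.1 FPKM in M4, against 88.3, 83.3 and 84.5 FPKM in M3 (-2.43 ± 0.19, FDR = 4.79e-10). DNA (cytosine-5)-methyltransferase 1 (LITCHI001103), which copies DNA methylation after replication, stood at 4.95, 3.89 and 2.82 FPKM in M4, against 27.7, 26.7 and 23.4 FPKM in M3 (-2.63 ± 0.21, FDR = 9.2e-10). In each of these, M4 replicate 1 was the highest and replicate 3 the lowest of its group, and no M4 library reached an M3 library.

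RNA silencing genes as a list had 3 higher (4.84%) and 13 lower (21.0%) of 62 tested. Argonaute 7 (LITCHI005237), which acts in trans-acting small RNA synthesis in Arabidopsis, was among those that rose, at 42.4, 48 and 64.3 FPKM in M4, against 9.17, 8.25 and 7.11 FPKM in M3. Of 23 meiosis genes 5 fell (21.7%) and none rose (median -0.57), and 2 fell without M4 replicate 2 and 3 without M3 replicate 3. The median was -0.32 without M4 replicate 2 or M3 replicate 1, -0.35 without M3 replicate 2 and -0.36 without M4 replicate 1. Pentatricopeptide repeat proteins, which process organelle RNA, had 48 lower and 10 higher of 719 tested, below the shares over all genes. Among them At1g06270 (LITCHI020967) fell, to 4.13 ± 1.19 FPKM in M4, against 57.7 ± 4.96 FPKM in M3 (SD, n = 3 each).

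Photosynthesis genes were lower more often than higher, and few genes for respiration or cytosolic ribosomes were called. Of 53 tested photosynthesis genes 26 fell and 1 rose (median -1.42), and 2 rose without M4 replicate 1 or M3 replicate 3. Chlorophyll a-b binding protein 4 (LITCHI021457), a light-harvesting antenna protein, stood at 6.2, 6.95 and 5.92 FPKM in M4, against 103, 117 and 125 FPKM in M3 (-4.07 ± 0.39, FDR = 1.41e-08). CP26 (LITCHI012016), of the photosystem II antenna, stood at 15.8, 16.3 and 18.9 FPKM in M4, against 138, 141 and 134 FPKM in M3. Entries for the small subunit of RuBisCO, which fixes CO2, differed. LITCHI008481 fell to 108, 109 and 86.6 FPKM in M4, against 312, 368 and 382 FPKM in M3, while LITCHI016391 had 586, 518 and 498 FPKM in M4 and 338, 283 and 313 FPKM in M3 and was not called at a log2 fold change of 0.89.

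Of 193 tested cytosolic ribosomal proteins 1 rose and 2 fell, with a median of 0.01. Without 1 library 0 or 1 rose and 1 to 3 fell, and the median was 0.00 to 0.10. Respiratory chain genes had 2 called higher (5 without M3 replicate 1, 1 without M3 replicate 2) and none lower of 61, with a median of 0.64. One of the 2 was succinate dehydrogenase iron-sulfur subunit 2 (LITCHI020661), at 132, 158 and 164 FPKM in M4, against 75.8, 67.7 and 78 FPKM in M3. The senescence protease SAG39 (LITCHI029054) stood at 147, 144 and 139 FPKM in M4, against 6.42, 4.76 and 4.66 FPKM in M3. Autophagy and cell-death proteases as a list had 4 higher (6.78%) and 1 lower (1.69%) of 59, below the shares over all genes.

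Lists of wall, lipid and reactive oxygen genes were divided. Cellulose, callose and arabinogalactan genes had 15 higher and 21 lower of 104 tested, GDSL lipases with wax and lipid transfer genes 31 and 35 of 154, and peroxidases with reactive oxygen genes 19 and 22 of 112, with 12 higher without M4 replicate 3. Of 55 tested expansins and xyloglucan enzymes 15 rose and 18 fell (median 0.12, but 0.06 without M4 replicate 1, 0.26 without M4 replicate 3 and 0.25 without M3 replicate 1). Expansin-A8 (LITCHI027598), which loosens walls, stood at 366, 387 and 390 FPKM in M4, against 131, 83.6 and 82.7 FPKM in M3 (2.06 ± 0.41, FDR = 0.00024). Xyloglucan endotransglucosylase/hydrolase 23 (LITCHI016355), which cuts and rejoins xyloglucan, stood at 5.87, 5.72 and 5.98 FPKM in M4, against 114, 89.7 and 86.2 FPKM in M3 (-3.93 ± 0.23, FDR = 7.22e-12). Both changes exceeded the spread between libraries, in opposite directions. Cellulose synthase-like protein E1 (LITCHI013678) averaged 177 ± 14.4 FPKM in M4 and 7.03 ± 1.73 FPKM in M3, and the water channel TIP2-1 (LITCHI030525) of the vacuole averaged 736 ± 116 FPKM in M4 and 161 ± 10.2 FPKM in M3 (SD, n = 3 each).

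Each family of transcription factors examined had more members lower than higher, as did all tested genes. Ethylene-responsive factors had 33 lower and 8 higher of 98 tested (median -0.73), NAC factors 23 and 6 of 83 (median -0.70, and -0.29 without M4 replicate 3 or -0.30 without M3 replicate 1), WRKY factors 16 and 2 of 69 (median -0.72, and 1 higher without M4 replicate 3 or any 1 of the M3 replicates), and MYB factors 31 and 11 of 133 (median -0.17, but -0.04 without M3 replicate 1 and -0.07 without M3 replicate 2). Only 15 NAC factors were called lower by limma-trend on log2(FPKM + 1). Clock genes had 3 higher and none lower of 31, and 5 higher without M4 replicate 2, M4 replicate 3 or M3 replicate 2. WRKY40 (LITCHI016896), a defence regulator in Arabidopsis, stood at 34.1, 32.1 and 26.6 FPKM in M4, against 266, 257 and 252 FPKM in M3 (-2.95 ± 0.22, FDR = 3.09e-10). ERF4 (LITCHI029145), a repressor in Arabidopsis, stood at 21.5, 24.6 and 16.7 FPKM in M4, against 183, 189 and 206 FPKM in M3 (-3.10 ± 0.26, FDR = 1.65e-09). The libraries of the 2 stages did not overlap in either gene.

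Homeobox factors had 19 lower and 10 higher of 91 tested, with a median of 0.01 that ran from -0.10 to 0.17 without 1 library. MYB105 (LITCHI005190), a boundary factor in Arabidopsis, averaged 0.188 ± 0.0858 FPKM in M4 and 7.43 ± 0.382 FPKM in M3, and WUSCHEL-related homeobox 1 (LITCHI023084), which drives the outgrowth of leaf blades in other plants, averaged 0.413 ± 0.0783 FPKM in M4 and 9.56 ± 1.38 FPKM in M3 (SD, n = 3 each). The homeobox factor HAT4 (LITCHI022755) rose, to 203, 195 and 189 FPKM in M4, against 66.4, 58.3 and 57.4 FPKM in M3. The factor BHLH094 (LITCHI005070) rose, at 630, 532 and 433 FPKM in M4, against 74.2, 70.9 and 63.5 FPKM in M3 (3.04 ± 0.17, FDR = 4.92e-12).

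Hormone genes were mixed. NCED enzymes cleave carotenoids on the way to abscisic acid, and 2 of them moved apart. NCED6 (LITCHI015114) stood at 594, 530 and 488 FPKM in M4, against 73, 68.8 and 75.6 FPKM in M3 (3.00 ± 0.26, FDR = 2.78e-09). NCED1 (LITCHI012579) stood at 33.9, 25.4 and 15.2 FPKM in M4, against 54, 67.2 and 62.8 FPKM in M3 (-1.20 ± 0.26, FDR = 0.000581), with a log2 fold change of -0.89, under the threshold, without M4 replicate 3 and an FDR of 0.0137 with M4 and M3 alone in the fit.

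For jasmonate, which drives anther opening in Arabidopsis, 9 of 47 tested genes rose and 11 fell. The synthesis enzymes 13S-lipoxygenase 3-1 (LITCHI030220) and allene oxide cyclase (LITCHI019276.m2) fell, to 81.8 ± 17.7 and 42.4 ± 14.1 FPKM in M4, against 217 ± 10.3 and 145 ± 25.9 FPKM in M3 (SD, n = 3 each). TIFY 6B (LITCHI005842), a repressor of the jasmonate response, rose, at 481, 448 and 402 FPKM in M4, against 163, 160 and 157 FPKM in M3. Of 155 auxin genes 19 rose (12.3%) and 34 fell (21.9%). The repressors IAA27 (LITCHI016794) and AUX28 (LITCHI026127) went opposite ways, the first at 15.4 ± 6.27 FPKM in M4 and 89.8 ± 0.708 FPKM in M3, the second at 221 ± 25.1 FPKM in M4 and 62.9 ± 5.31 FPKM in M3.

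The ethylene-forming enzyme 1-aminocyclopropane-1-carboxylate oxidase 1 (LITCHI017644) stood at 11.6, 16.4 and 25.2 FPKM in M4, against 1.16, 1.21 and 1.11 FPKM in M3 (4.04 ± 0.49, FDR = 4.23e-07). Enzymes that break down cytokinin parted, with dehydrogenase 3 (LITCHI017617) higher by 7.06 ± 0.82 and dehydrogenase 5 (LITCHI010235) at -2.88 ± 0.29 on the log2 scale. Gibberellin 20 oxidase 2 (LITCHI009240), of gibberellin synthesis, fell to 1.27, 1.52 and 0.633 FPKM in M4, against 8.74, 6.79 and 5.95 FPKM in M3.

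MADS-box factors set the identity of floral organs by the ABCDE model, in which A acts in sepals and petals, B in petals and stamens, C in stamens and carpels, D in ovules and E beside all of them. Of 95 MADS-box genes measured, 43 were tested, of which 6 rose and 8 fell (median -0.35, -0.01 without M4 replicate 1 and -0.21 without M3 replicate 2). The C-class gene AGAMOUS (LcMADS65) stood at 179, 176 and 204 FPKM in M4, against 92.4, 84.6 and 84.9 FPKM in M3 (1.20 ± 0.13, FDR = 4.59e-08). The B-class DEFICIENS homologs differed. LcMADS75 stood at 422, 386 and 331 FPKM in M4 and 214, 197 and 199 FPKM in M3 (1.01 ± 0.13), just over the threshold, at 0.90 with scaling by library totals and short of it without M4 replicate 1, while LcMADS45 fell to 3.59, 3.06 and 1.56 FPKM in M4, against 18.1, 19.4 and 17.8 FPKM in M3 (-2.64 ± 0.21, FDR = 6.83e-10). The other B-class gene, LcMADS50 (PMADS 2), had 413, 348 and 280 FPKM in M4 and 318, 297 and 334 FPKM in M3, which overlapped.

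Of the A and E classes, the AGL8 homolog LcMADS72 fell to 4.79 ± 0.498 FPKM in M4, against 20.1 ± 0.993 FPKM in M3, and the EJ2 homolog LcMADS94 to 7.99 ± 1.59 FPKM in M4, against 31.9 ± 3.67 FPKM in M3 (SD, n = 3 each). APETALA 1 (LcMADS95), the second EJ2 homolog LcMADS73 and the AGL9 homolog LcMADS91 were not called, with log2 fold changes of -0.48, -0.35 and -0.57. SEPALLATA 2 (LcMADS100) was not called at 0.97, and its log2 fold change lay between 1.01 and 1.18 under 9 alternative settings that called it. SEPALLATA 2 is the deposited name of LcMADS100, which the study calls LcSEP1, and the LcSEP2 of the study is LcMADS94. The D-class gene LcMADS51 (AGL11), of ovules, was at 0.459, 0.678 and 0.624 FPKM in M4, against 2.82, 3.25 and 2.49 FPKM in M3 (-2.14 ± 0.29, FDR = 1.81e-06), and AGL1 (LcMADS11) was not called at -0.78.

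MIKC* genes act in maturing pollen in Arabidopsis, and the 3 AGL104 homologs divided. LcMADS46 was at 2.2, 4.08 and 4.23 FPKM in M4, against 0.115, 0 and 0 FPKM in M3, and LcMADS47 at 3.41, 4.11 and 6 FPKM in M4, against 0.368, 0.103 and 0.178 FPKM in M3. LcMADS27 went the other way, with 0, 0 and 0.0447 FPKM in M4 and 2.09, 3.38 and 2.59 FPKM in M3 (-7.11 ± 1.53, FDR = 0.000747). Among other MADS-box genes, AGL18 (LcMADS42) and AGL30 (LcMADS93) rose by 1.42 ± 0.19 and 1.35 ± 0.20 on the log2 scale, the second at 0.97 and not called with limma-trend on log2(FPKM + 1). SVP (LcMADS48), MADS-box transcription factor 6 (LcMADS85) and AGL19 (LcMADS71) were also called lower, with log2 fold changes of -4.15, -2.81 and -4.90. The AGL19 value is that of 1 entry, which came to -2.83 with the 3 entries of its locus summed and was not called with limma-trend on log2(FPKM + 1) (-0.65, FDR = 0.0115).

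**Figure D4:**
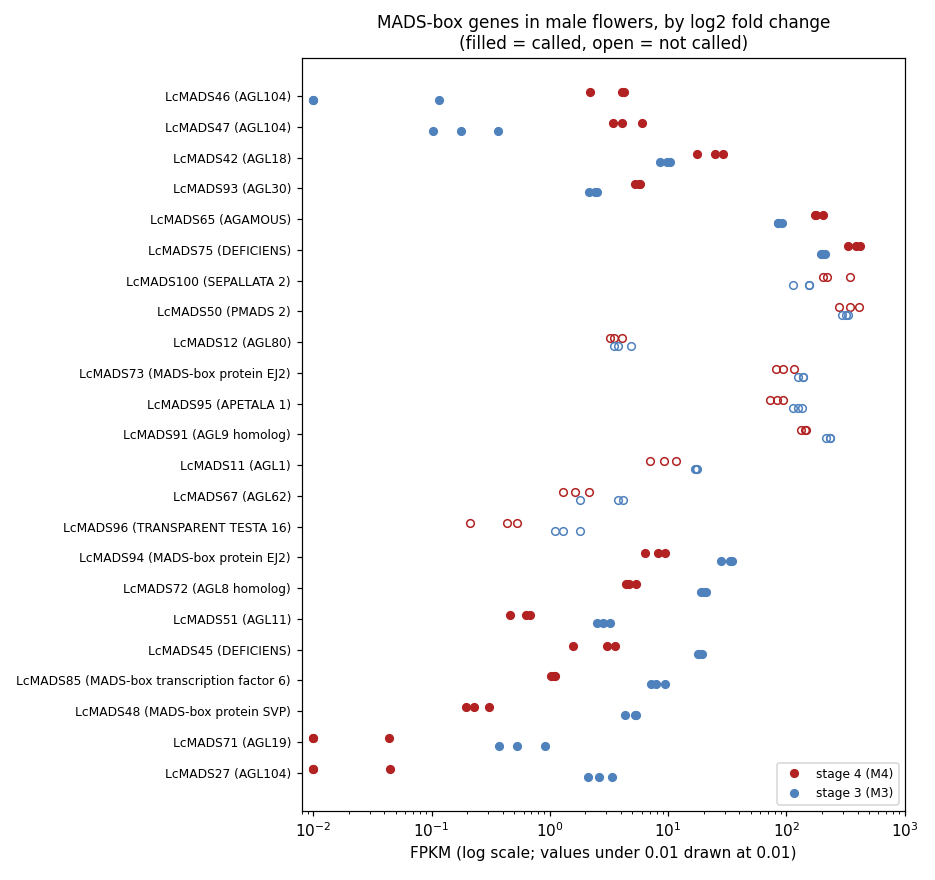
FPKM (log axis) of 23 MADS-box genes in the 3 M4 libraries (red, upper) and the 3 M3 libraries (blue, lower), ordered by log2 fold change, filled where called and open where not, with values under 0.01 FPKM drawn at 0.01. LcMADS46 and LcMADS47 lie at the top and LcMADS71 and LcMADS27 at the foot, and the libraries of LcMADS50 overlap.

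Where the male step differed from the female step was tested in the same fit. F4 against F3 gave 3362 called genes (12.1%), 1271 higher (4.56%) and 2091 lower (7.51%). The difference of the steps was called for 2685 genes (9.64%), with 969 above 0 (more positive in male flowers) and 1716 below 0. The share above 0 was 36.1%, and 25% with scaling by library totals. Of the 2154 genes higher in M4, 506 had a male step called more positive than the female (23.5%), and of the 3518 lower in M4, 1349 had one called more negative (38.3%). At stage 3 the sexes were close, with 212 genes called in M3 against F3 (0.761%), and at stage 4 they differed in 4721 (16.9%). These comparisons share their libraries with the male step.

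Cell division was among the lists with many genes called between the steps. Of its 151 tested genes, 59 had a male step called below the female and 5 above, against 6.16% and 3.48% over all genes, and F4 against F3 called 6 lower and 1 higher. CDKB2-2 averaged 54.4 FPKM in F4 and 72.8 FPKM in F3, and its steps differed by -1.85 ± 0.23 (FDR = 3.48e-06). Histones had 14 below and none above of 36, and histone H2A variant 2 averaged 104 FPKM in F4 and 124 FPKM in F3 (-2.13 ± 0.25). Photosynthesis had 20 below and none above of 53, and chlorophyll a-b binding protein 4 averaged 50.7 FPKM in F4 and 60.5 FPKM in F3 (-3.77 ± 0.51). None of these 3 genes was called in F4 against F3.

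The tapetum list went the other way. F4 against F3 called 20 of its 26 genes lower and M4 against M3 called 11, with 5 male steps called above the female and 2 below. Markers of the tapetum summed to a mean of 99.6 FPKM in F4 and 822 FPKM in F3, the second above each M3 library. Polygalacturonases and pectate lyases had 12 male steps above and 6 below of 63, potassium and proton transport 18 above and 3 below of 146, and sugar genes 12 above and 2 below of 97. Pectinesterases with their inhibitors had 2 above and 6 below of 60, and F4 against F3 called 17 of them higher and 2 lower. Pollen and anther proteins had 5 above and 3 below of 21, and F4 against F3 called 8 of them higher and 1 lower. Pollen tube markers summed to a mean of 123 FPKM in F4 and 26.5 FPKM in F3.

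**Figure D5:**
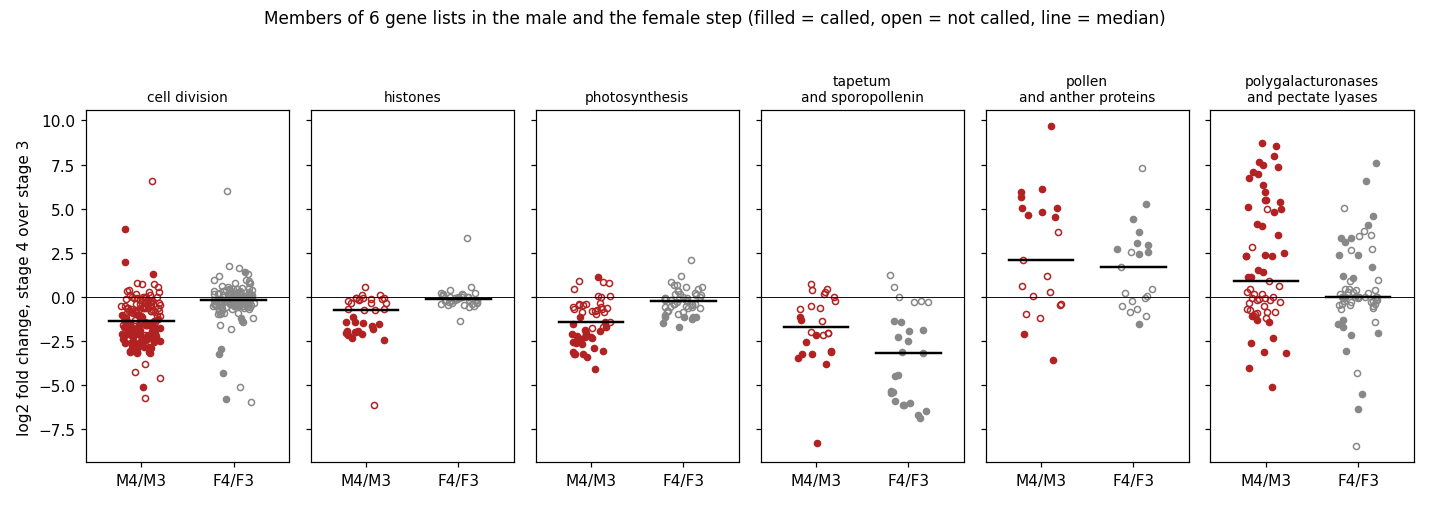
Log2 fold change of stage 4 over stage 3 for tested members of 6 gene lists, male step (M4 over M3, red) left and female step (F4 over F3, grey) right, filled where called, with a line at the median. Cell division has a median of -1.38 in the male step and 73 members called lower, and 6 called lower in the female step.

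The order of stages around the step was given by the neighbouring comparisons, which share M4 or M3 libraries with it. M3 against M2 called 1736 genes (6.23%) and M5 against M4 called 2960 (10.6%). CWINV1 averaged 0.0763 FPKM in M2 and 2280 FPKM in M5, and MYB305 averaged 0.0923 FPKM in M2 and 600 FPKM in M5. CYP703A2 averaged 90.1 FPKM in M2 and 0.791 FPKM in M5, and CDKB2-2 averaged 61.5 FPKM in M2 and 4.75 FPKM in M5. Spermidine hydroxycinnamoyl transferase was low on both sides of M3, with 23.6 FPKM in M2 and 1.62 FPKM in M5. NCED6 averaged 9.32 FPKM in M2 and 121 FPKM in M5, each under its 537 ± 53.7 FPKM in M4 (SD, n = 3).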

How the data were processed

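RNA-seq was made from whole flowers with a NEBNext Ultra kit, which does not mark strand, so overlapping and antisense genes cannot be told apart. The study's methods name Trimmomatic, removal of ribosomal reads and Cufflinks, and the submitters' processing notes name HISAT2 2.0.4 and StringTie without a role. The genome build is not given in the sources used here, and no positions are printed. The authors deposited raw counts and FPKM values for each of 37234 genes and 30 libraries. They also deposited 75 columns of fold changes and p-values for 25 pairs of groups, which were not used.

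Library totals ran from 27433038 to 43760285 counts. At such totals counting error matters for weak genes alone, and the floor of 3 counts covers counting error only, since reads are not independent molecules.

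The test was run in edgeR 4.0.16 (R 4.3.3): filterByExpr on the 10 groups (27854 genes kept, 9380 removed, 3835 of the table without a count), TMM factors (0.926 to 0.944 in M4, 0.99 to 1.018 in M3), all 30 libraries in 1 quasi-likelihood model without covariates (common biological coefficient of variation 0.352). Calls needed a 2-fold change or more and a Benjamini-Hochberg FDR below 0.01. SE is the log2 fold change over the root of F. The fit was tested on simulated data. Names come from Swiss-Prot (26054 genes) or NR (8130), as deposited. The rule for named genes took the 12 largest fold changes in each direction, members of each list with the largest fold or FPKM difference, MADS-box genes of the ABCDE model and marker genes, with at least 10 CPM and no overlap in the first 2 parts. Members and lists were chosen with earlier results of these data known, and list medians and counts carry no test. Alternatives were DESeq2 1.42.0, limma 3.58.1 on log2(FPKM + 1) or log2(FPKM + 0.1), other scalings, filters and thresholds, summed loci, a replicate block and leaving out each replicate. The filter was rerun when a replicate was left out, and 28341 to 28354 genes were tested without 1 M4 or M3 library. List counts and medians of those fits therefore rest on partly different members.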

Additional observations from a re-analysis of the deposited data

Results flagged for a closer look

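The genes here were singled out because the male step (M4 over M3) and the female step (F4 over F3) differed in the same edgeR fit, at an FDR under 0.01 and a difference of at least 1 on the log2 scale. Each value is the male minus the female log2 fold change. Only genes chosen for the text were looked at, not all 2685 genes called between the steps. None of the differences is explained here.

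Among pollen and wall genes the male step was above the female for fasciclin-like arabinogalactan protein 14 (9.41, a fitted value of uncertain size since M3 had no count), pectate lyase 19 (4.53), AGL104 homolog LcMADS47 (3.22), an L-ascorbate oxidase homolog (LITCHI024335, 3.06), profilin-3 (2.63), expansin-A8 (2.39), Ole e 6 (LITCHI014844, 1.97) and cellulose synthase-like protein E1 (1.03). It was below for beta-galactosidase 3 (-11.35, a single entry of its locus and of uncertain size since M4 had no count), pectinesterase 68 (-3.34), xyloglucan endotransglucosylase/hydrolase 9 (-2.61) and 23 (-2.55), an L-ascorbate oxidase homolog (LITCHI006774, -1.42) and RALF-like 34 (-1.16).

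Among transport and metabolism genes it was above for CWINV1 (6.50), ABC transporter G family member 9 (6.07), potassium transporter 13 (4.98), the 1-deoxy-D-xylulose-5-phosphate synthase (2.97), the ethylene-forming oxidase 1 (2.81), potassium transporter 5 (2.44, which fell in both steps), potassium transporter 2 (1.61), NCED6 (1.43) and 13S-lipoxygenase 3-1 (1.33). It was below for mavicyanin (LITCHI026232, -3.0) and copper transporter 4 (-2.65). Like potassium transporter 5, 13S-lipoxygenase 3-1 fell in both steps, with log2 fold changes of -1.3 in male and -2.63 in female flowers. The log2 fold changes of CWINV1, ABC transporter G family member 9 and the 1-deoxy-D-xylulose-5-phosphate synthase were positive in both steps. In female flowers they were 5.47, 6.21 and 6.24.

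Genes of division and chromatin were below, namely KIN-10A (-2.66), DNA (cytosine-5)-methyltransferase 1 (-2.39), histone H2A variant 2 (-2.13), argonaute 10 (-2.09, for 1 of 6 entries of its locus, whose male log2 fold change was -2.83 and, with the locus summed, -1.63), CDKB2-2 (-1.85), CDKB1-2 (-1.76), histone H3.2 (-1.33) and histone H2A.6 (-1.31). So were chlorophyll a-b binding protein 4 (-3.77), CP26 (-2.50) and the pentatricopeptide repeat protein At1g06270 (-2.52).

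Among regulators it was below for WUSCHEL-related homeobox 1 (-3.86), AGL11 (-3.25, with a female log2 fold change of 1.11), MYB105 (-3.04), ERF4 (-2.28), DEFICIENS homolog LcMADS45 (-2.19), MADS-box transcription factor 6 (-1.60), the AGL8 homolog (-1.32), IAA27 (-1.31) and ERF105 (-1.05). It was above for PMADS 2 (1.63), AGL18 (1.61), HAT4 (1.37), APETALA 1 (1.10), AGAMOUS (1.06) and AGL30 (1.04). PMADS 2 and APETALA 1 were not called in M4 against M3, and their female log2 fold changes were -1.39 and -1.58.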

How the results depend on the processing

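The 5672 calls of M4 against M3 ran from 4174 with limma-trend on log2(FPKM + 1) to 6649 at an FDR under 0.05, and from 4897 to 5557 without 1 replicate (higher 1989 to 2310, lower 2870 to 3247). The 2685 calls between the male and female steps ran from 2541 with limma to 3878 at an FDR under 0.05, apart from 2086 to 2655 without 1 replicate (above 0, 731 to 1035; below 0, 1355 to 1633). The 969 above 0 became 1478 with DESeq2 and 1577 at an FDR under 0.05, and the cause was not tested for DESeq2. With the replicate number as a block, 5580 and 2592 genes were called. Deviations of same-numbered M4 and M3 libraries correlated at 0.001 to 0.017, and those of differently numbered ones at -0.012 to 0.01. Such small values cannot show whether the numbers pair the samples. Of 132 tested genes chosen for the text from those taken by the rule, 119 kept their side of the threshold and direction under every setting. The glucan endo-1,3-beta-glucosidase 13 entry turned from -11.87 to 0.14 with its locus summed. Of 90 counts of list members, 52 stayed within 1.5 times under every setting. With limma-trend on log2(FPKM + 1), 19 pentatricopeptide repeat genes were lower and 18 GDSL and lipid genes higher. Weak genes and entries that share a locus are the limit of depth and counting here.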
